A study of Mus musculus with 12 samples.

Results

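The comparison described here is that of livers lacking Socs3 in hepatocytes with control livers after an injection of phosphate-buffered saline (PBS), which carries no cytokine. It rests on 4 of the 12 arrays of the study, chosen by their labels: 2 Socs3-deleted arrays after PBS (S3_PBS) and 2 control arrays after PBS (WT_PBS). Socs3-deleted mice were positive for albumin-Cre and carried 1 null and 1 floxed Socs3 allele. Control mice were negative for albumin-Cre and carried 1 wild-type and 1 floxed allele. The other groups used below are Socs3-deleted and control mice given interleukin-6 (S3_IL6 and WT_IL6, 2 arrays each) and Ifng-null mice given PBS (IFN_PBS, 2 arrays). All mice were injected intraperitoneally and killed 4 h later, and total liver RNA was hybridised to Affymetrix arrays. Albumin-Cre is a recombinase driven by a promoter active in hepatocytes, so other liver cells keep the floxed allele. The null allele is present in every cell, so that those cells hold 1 working copy, the floxed one. The labels give neither the age, the sex nor the strain of the mice, nor do they say that the 2 replicates of a group were separate animals. The p-values therefore measure the spread between these arrays, which may be technical.

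Socs3 is an inhibitor that cells make in answer to cytokines. It binds the gp130 subunit of the receptors for interleukin-6 (IL-6) and related cytokines and blocks the JAK kinases there, which shortens the activity of the transcription factor STAT3. In hepatocytes IL-6 and STAT3 drive the acute phase response, in which the liver secretes serum amyloids, fibrinogen, haptoglobin and other plasma proteins. The comparison after PBS asks what the deletion does to liver RNA when no cytokine has been given.

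Each array gave 1 intensity per probe set, and the medians of the 4 arrays lay between 82.3 and 85.7. Hepatocyte markers were present at like levels, with summed intensities over 12 genes of 66830 and 64990 in Socs3-deleted livers, against 65860 and 62890 in control livers. Xist, which marks female cells, was above the intensity floor of 33.01 on 0 of 12 arrays. Among genes of the Y chromosome, Uty was below the floor on the 4 arrays and Kdm5d near it. Eif2s3y read 92.3 and 118.8 in Socs3-deleted livers, against 92.5 and 76.0 in control livers. The sex of the mice was not inferred from these genes. Replicate 2 of both groups carried signal from exocrine pancreas genes. The summed intensity of the 24 measured genes of that list was 3522 and 30750 on Socs3-deleted replicates 1 and 2, against 3826 and 13600 on control replicates 1 and 2. Haemoglobin and other erythroid genes summed to 4158 and 7419 in Socs3-deleted livers, against 2813 and 9567 in control livers. The medians of the main gene lists are therefore given by replicate number as well. In bulk RNA, fewer cells of a type and less RNA per cell cannot be told apart.

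**Figure D1:**
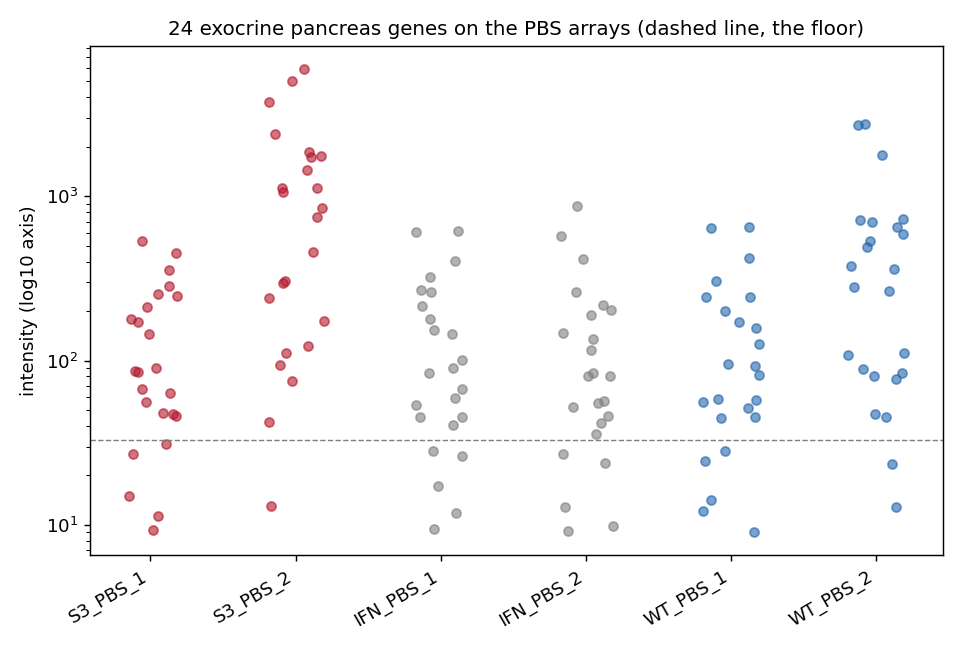
Intensity on a log10 axis of 24 exocrine pancreas genes on the 2 Socs3-deleted, 2 Ifng-null and 2 control arrays after PBS; each point is a gene and the dashed line is the floor of 33.01. Replicate 2 of the Socs3-deleted and of the control arrays stands above the other 4 arrays, and their sums are 30750 and 13600.

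No probe set passed the test between Socs3-deleted and control livers after PBS. Of 9641 probe sets tested with limma, 0 (0.0%) reached an adjusted p under 0.05 in either direction, and the smallest adjusted p was 0.104. At an unadjusted p under 0.05 there were 402 probe sets (4.17%), 224 higher (2.32%) and 178 lower (1.85%), where 482 would be counted if p-values were uniform. The 3 probe sets at the smallest adjusted p were Lcn2, Gas6 and Rpap3, all higher in Socs3-deleted livers. Permuting 2 arrays against 2 exactly allows no two-sided p under 0.33, and the values below therefore rest on limma, where all 6 groups share 1 estimate of the spread. None of the genes named in the following paragraphs passed the adjusted threshold after PBS with all arrays in the fit.

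Socs3 RNA was lower in Socs3-deleted livers on both of its probe sets. The brighter probe set read 76.8 and 74.4 in Socs3-deleted livers, against 123.7 and 117.5 in control livers. The dimmer one read 60.8 and 52.6 in Socs3-deleted livers, against 78.8 and 88.2 in control livers. The groups did not overlap on either. The log2 differences were -0.67 ± 0.18 (SE, adjusted p = 0.59) and -0.56 ± 0.16 (SE, adjusted p = 0.772), which are levels 1.59-fold and 1.47-fold lower. After IL-6 the differences were of like size, -0.69 and -0.75. Over both injections the means differed by -0.68 and -0.65, and permuting the genotypes within each injection (36 splits, exact, two-sided) gave p = 0.0556 for each probe set, the smallest it can give. No source used here tells whether these probe sets fall inside the floxed segment, and Socs3 RNA of other liver cells is measured as well. Of the other 4 members of the SOCS family measured, Cish, Socs1, Socs2 and Socs5, 0 had an unadjusted p under 0.05. Socs2 read 162 and 380 in Socs3-deleted livers, against 235 and 146 in control livers, and its direction turned without replicate 2 of the Socs3-deleted livers (log2 -0.19) and without replicate 2 of both groups (log2 -0.54).

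Acute phase genes had the highest median difference of the 36 lists read after PBS. All 29 measured genes of the list could be tested, and 27 were higher in Socs3-deleted livers by their mean, where 47.1% of all genes were, with a median log2 difference of 0.92, against -0.01 over all 6976 genes tested. At an unadjusted p under 0.05, 19 were higher and 1 was lower, where 2.44% of all genes were higher and 1.85% lower. On 23 of the 29 genes both Socs3-deleted arrays lay above both control arrays, which held for 16.4% of all genes. The same 23 also lay above both Ifng-null arrays after PBS, which held for 5.45% of all genes. By replicate number the median was 0.51 in replicate 1 and 1.16 in replicate 2, and 25 genes were higher in both. Without replicate 2 of both groups, which leaves 1 array against 1, 10 of the 29 were higher at an unadjusted p under 0.05, where 0.96% of all genes were.

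Lcn2, which binds bacterial iron carriers, had the largest difference of the list. It read 1006 and 1907 in Socs3-deleted livers, against 53.5 and 31.6 in control livers. The log2 difference was 5.04 ± 0.67 (SE, adjusted p = 0.104), a 32.95-fold higher level, with the lower control array counted at the floor. A second, dim Lcn2 probe set did not share this, with 78.8 and 86.7 in Socs3-deleted livers, against 71.4 and 110.8 in control livers. S100a8, a defining neutrophil gene, lay near the floor and read 30.6 and 37.5 in Socs3-deleted livers, against 23.1 and 37.7 in control livers. Of the 10 neutrophil markers tested, 1 had an unadjusted p under 0.05, and that was Lcn2 itself; Mpo, Cxcr2 and Mmp8 were below the floor on all 4 arrays.

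The metallothioneins Mt1 and Mt2, which bind zinc and other metals, were near the top of the intensity range in Socs3-deleted livers. Mt1 read 9266 and 9157 in Socs3-deleted livers, against 1197 and 176 in control livers (log2 4.33 ± 1.02, SE, adjusted p = 0.502). Mt2 read 8874 and 7309 in Socs3-deleted livers, against 967 and 252 in control livers (log2 4.03 ± 1.05, SE, adjusted p = 0.59). The Socs3-deleted arrays lay close together on both genes, while the control arrays differed several-fold from each other, and the groups did not overlap. The Ifng-null arrays after PBS were as far apart, with Mt1 at 3654 and 358.

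Serum amyloids, the apolipoproteins of the acute phase, were higher too. Saa2 read 8619.6 and 10652 in Socs3-deleted livers, against 3254 and 545 in control livers (log2 2.85 ± 0.94, SE, adjusted p = 0.951), and its second probe set 631 and 854, against 242 and 83.6. Saa3 read 969 and 544 in Socs3-deleted livers, against 117 and 140 in control livers (log2 2.499 ± 0.73, SE, adjusted p = 0.772). Apcs, the gene of serum amyloid P, read 1471 and 3876 in Socs3-deleted livers, against 498 and 383 in control livers (log2 2.45 ± 0.44, SE, adjusted p = 0.246). No array of one group reached the other on these genes. With replicate 1 of the Socs3-deleted livers left out, the log2 difference of Apcs was 3.15. That leaves a single array in the group, the one with exocrine signal.

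Fibrinogen and the inter-alpha-trypsin inhibitor heavy chains, which bind hyaluronan, showed smaller but tighter differences. Itih3 read 4858 and 5330.0 in Socs3-deleted livers, against 2719.9 and 2673 in control livers (log2 0.92 ± 0.13, SE, adjusted p = 0.118). Itih4 read 2887 and 3495 in Socs3-deleted livers, against 1877 and 1298 in control livers. Fgb, the fibrinogen beta chain, read 3647 and 3758 in Socs3-deleted livers, against 2458 and 1873 in control livers (log2 0.79 ± 0.13, SE, adjusted p = 0.217). The gamma chain gene Fgg read 4612 and 4978, against 3894 and 2697. The alpha chain gene Fga read 2492 and 2463 in Socs3-deleted livers, against 2466 and 2093 in control livers, and its groups overlapped.

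The remaining acute phase genes ranged widely. Orm2, an orosomucoid that carries drugs and lipids in plasma, read 965 and 3072 in Socs3-deleted livers, against 593 and 385 in control livers (log2 1.85 ± 0.48, SE, adjusted p = 0.59). Serpina3n, a protease inhibitor, read 5997 and 7118 in Socs3-deleted livers, against 2684 and 1401 in control livers (log2 1.75 ± 0.36, SE, adjusted p = 0.331). Lbp, which presents lipopolysaccharide to its receptor, read 954 and 1439 in Socs3-deleted livers, against 569 and 472 in control livers. Hamp, the gene of the iron hormone hepcidin, read 4585 and 3059.5 in Socs3-deleted livers, against 2169 and 1482 in control livers. A2m, the protease inhibitor alpha-2-macroglobulin, read 86.8 and 96.8 in Socs3-deleted livers and was below the floor on both control arrays, so that it was at least 2.78-fold higher (unadjusted p = 0.0907). Haptoglobin (Hp) and haemopexin (Hpx), which clear haemoglobin and haem, differed by only 0.35 and 0.45 on the log2 scale. Pigr, the transporter of polymeric antibodies, was the list's 1 gene lower at an unadjusted p under 0.05, with 3766 and 3606 in Socs3-deleted livers, against 4835 and 4711 in control livers.

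**Figure D2:**
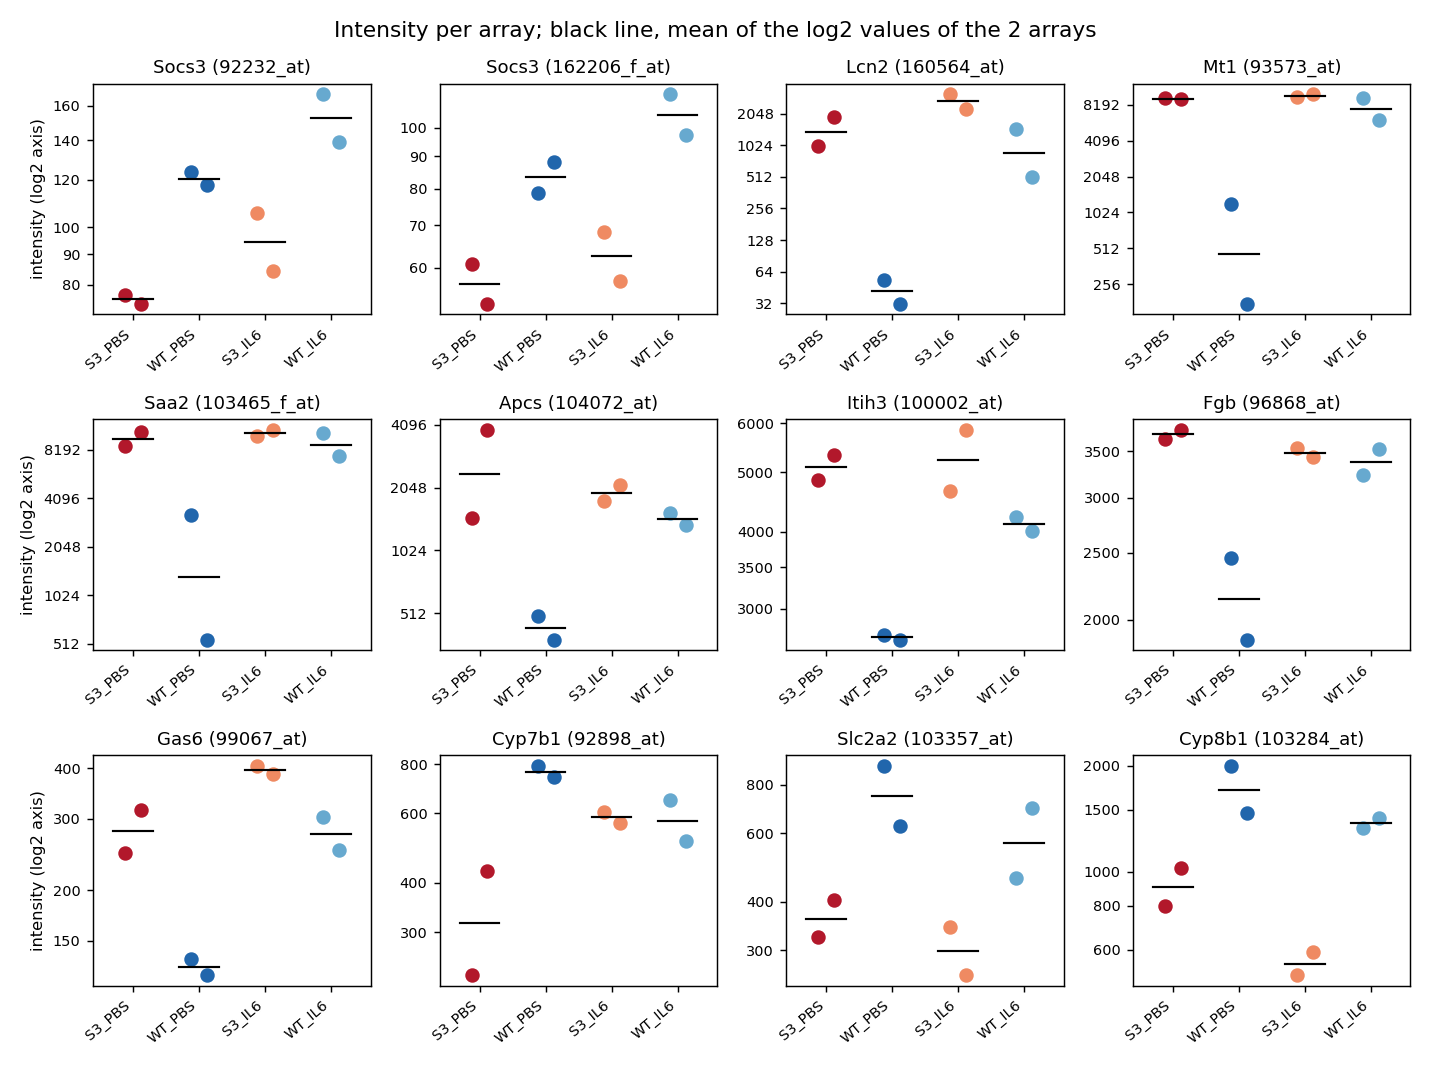
Intensity on a log2 axis of Socs3 (2 probe sets) and 10 other genes in Socs3-deleted and control livers after PBS (S3_PBS, WT_PBS) and after IL-6 (S3_IL6, WT_IL6); points are arrays and the black line is the mean of the log2 values. After PBS the Socs3-deleted arrays lie above both control arrays for Lcn2, Mt1, Saa2, Apcs, Itih3, Fgb and Gas6 and below them for Socs3, Cyp7b1, Slc2a2 and Cyp8b1.

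The level of the acute phase genes on each array placed the Socs3-deleted livers after PBS apart from the other PBS arrays. Relative to the mean of the control arrays after PBS, the median over the 29 genes was 0.83 and 0.93 on the Socs3-deleted arrays and 0.22 and -0.05 on the Ifng-null arrays after PBS. After IL-6 it was 1.14 and 1.24 on the Socs3-deleted arrays and 0.68 and 0.63 on the control arrays. For 22 of the 29 genes the mean log2 level was higher in Socs3-deleted livers after PBS than in control livers after IL-6, and for 7 it was higher than in Socs3-deleted livers after IL-6. Neither comparison was tested, and no share over all genes is given for them. The control replicates themselves differed: 25 of the 29 genes were higher on control replicate 1 than on replicate 2, and 26 were higher on Ifng-null replicate 1 than on replicate 2. Between the Socs3-deleted replicates, 9 of the 29 were higher on replicate 1. For these counts between replicates, too, no share over all genes is given and no test was made.

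**Figure D3:**
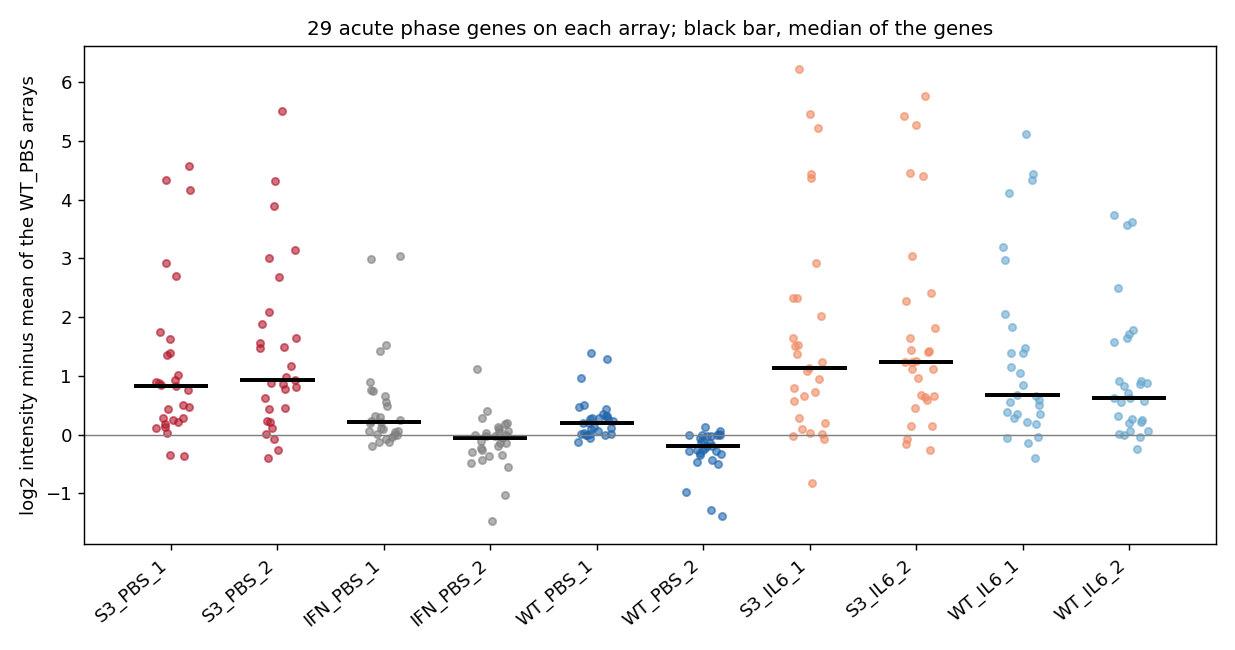
Log2 intensity of 29 acute phase genes on 10 arrays, relative to each gene's mean on the 2 control arrays after PBS (WT_PBS); points are genes and the black bar is their median. The medians are 0.83 and 0.93 on the Socs3-deleted arrays after PBS, 0.22 and -0.05 on the Ifng-null arrays after PBS, 1.14 and 1.24 on the Socs3-deleted arrays after IL-6 and 0.68 and 0.63 on the control arrays after IL-6.

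The 250 bases before the start of transcription were read for the acute phase genes from RefSeq (GRCm38.p6), at the most 5′ start of each gene, and searched on both strands for TTCNNNGAA, the palindrome that STAT proteins bind. Of the 23 acute phase genes with an entry, 5 held it (21.7%), where 6.08% of the genes on the array did. These were Apcs, Fga, Fgb, Hamp and Itih4, and Lcn2, Mt1, Saa2 and Saa3 did not hold it in this window. The palindrome was not particular to the acute phase list. It was held by 3 of 15 type I interferon-inducible genes with an entry (20.0%) and by 8 of 21 IFN-gamma-inducible genes (38.1%). Socs3 held it as well. A match is a description of letters and not a site. The sequences of Socs3, which is itself a target of STAT3, and of 3 of the acute phase genes are shown so that the matched letters, in capitals, can be set beside the values above. The regions are chr11:117969367-117969616 (minus strand) for Socs3, chr1:172895055-172895304 (minus strand) for Apcs, chr3:83049864-83050113 (minus strand) for Fgb and chr7:30944030-30944279 (minus strand) for Hamp.
Socs3: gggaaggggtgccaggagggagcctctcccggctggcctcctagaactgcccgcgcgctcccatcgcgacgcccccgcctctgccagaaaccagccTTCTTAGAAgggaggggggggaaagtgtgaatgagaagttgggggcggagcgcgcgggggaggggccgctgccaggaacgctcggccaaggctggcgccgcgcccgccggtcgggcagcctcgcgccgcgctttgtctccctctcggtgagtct
Apcs: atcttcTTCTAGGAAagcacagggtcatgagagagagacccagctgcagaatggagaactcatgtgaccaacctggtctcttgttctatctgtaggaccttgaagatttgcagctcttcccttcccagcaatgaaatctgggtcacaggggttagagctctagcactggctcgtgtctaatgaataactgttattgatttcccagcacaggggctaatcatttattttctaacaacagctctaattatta
Fgb: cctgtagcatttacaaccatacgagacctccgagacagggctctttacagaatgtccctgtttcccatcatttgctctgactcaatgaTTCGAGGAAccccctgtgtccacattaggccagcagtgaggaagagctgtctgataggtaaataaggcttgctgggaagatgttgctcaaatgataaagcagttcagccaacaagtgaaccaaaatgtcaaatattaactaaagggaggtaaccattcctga
Hamp: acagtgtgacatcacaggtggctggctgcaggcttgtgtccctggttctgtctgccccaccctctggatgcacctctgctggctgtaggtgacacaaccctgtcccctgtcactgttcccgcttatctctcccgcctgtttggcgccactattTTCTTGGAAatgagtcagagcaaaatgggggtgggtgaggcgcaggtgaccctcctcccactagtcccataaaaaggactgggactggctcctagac

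Among genes linked to STAT3 in other settings, the transcription factor Cebpd and the receptor gene Tnfrsf1a joined the acute phase genes. Of the 25 genes of this list that could be tested, 18 were higher, where 47.1% of all genes were. At an unadjusted p under 0.05, 9 were higher and 1 lower (Socs3), where 2.44% of all genes were higher and 1.85% lower. Of the 9, 7 are also in the acute phase list. Cebpd read 342 and 268 in Socs3-deleted livers, against 187 and 115 in control livers (log2 1.04 ± 0.32, SE, adjusted p = 0.888). Tnfrsf1a, a receptor for tumour necrosis factor, read 431 and 395 in Socs3-deleted livers, against 307 and 207 in control livers, while its second, dimmer probe set differed by -0.23. Other genes of the list did not stand apart: Pim1 read 409 and 402 in Socs3-deleted livers, against 447 and 387 in control livers, and Myc and Birc5 were below the floor on all 4 arrays.

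The receptors and kinases of the IL-6 pathway had differences in both directions. Of 26 genes tested, 14 were higher and 12 lower, with a median log2 difference of 0.00, and 2 were higher at an unadjusted p under 0.05, where 2.44% of all genes were. One was Osmr, a receptor subunit for oncostatin M, which read 47.0 and 55.04 in Socs3-deleted livers and was below the floor on both control arrays, at least 1.54-fold higher. The other was Il6st, the gene of gp130, with 300 and 414 in Socs3-deleted livers, against 292 and 171 in control livers; its second probe set differed by 0.30 with an unadjusted p of 0.52. The log2 differences of the 2 Stat3 probe sets were 0.17 and 0.46, and the groups overlapped on both. Il6ra, which binds IL-6, read 278 and 304, against 238 and 227.

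Outside the acute phase list, the 12 largest differences upward included Cxcl1, Igfbp1, Tff3 and Gadd45g. Cxcl1, a chemokine for neutrophils, read 1597 and 1727 in Socs3-deleted livers, against 455 and 133 in control livers on one probe set, and its other probe set gave the same picture (log2 2.76 and 2.79). On the Ifng-null arrays after PBS that first probe set read 1349 and 124, so that a single PBS array of that genotype came near the Socs3-deleted level. Igfbp1, which binds insulin-like growth factors, read 1010.0 and 266 in Socs3-deleted livers, against 223 and 66.6 in control livers (log2 2.09 ± 0.75, SE, adjusted p = 0.951). On the Ifng-null arrays after PBS it read 474 and 231, so that Socs3-deleted replicate 2 lay between them. Tff3, a trefoil peptide of mucosal repair, read 1709 and 781 in Socs3-deleted livers, against 274 and 282 in control livers (log2 2.06 ± 0.34, SE, adjusted p = 0.211). With replicate 2 of the Socs3-deleted livers left out, which leaves a single array in that group, the log2 difference of Tff3 was 2.62.

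Gadd45g, a stress-inducible growth inhibitor, read 492 and 269 in Socs3-deleted livers, against 84.0 and 229 in control livers. Gas6, the ligand of the receptor tyrosine kinases Axl and Mer, read 248 and 316 in Socs3-deleted livers, against 136 and 123 in control livers (log2 1.11 ± 0.14, SE, adjusted p = 0.104). Rpap3, a cochaperone in the assembly of RNA polymerase, read 69.2 and 82.8 in Socs3-deleted livers, against 40.5 and 44.8 in control livers (log2 0.83 ± 0.11, SE, adjusted p = 0.104). With replicate 1 of the Socs3-deleted livers left out, the log2 differences of Gas6 and Rpap3 were 1.29 and 0.96. That leaves a single array in the group, the one with exocrine signal. In both genes the replicates of a group lay close together and the groups did not overlap. Both were named for having the smallest adjusted p, which favours genes with such values.

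Genes that were lower in Socs3-deleted livers included several of bile acid, fatty acid and glucose handling. Cyp7b1, an oxysterol hydroxylase of the alternative bile acid pathway, read 233 and 428 in Socs3-deleted livers, against 792 and 741 in control livers on one probe set (log2 -1.28 ± 0.24, SE, adjusted p = 0.249), and the second probe set gave the same difference. With replicate 2 of the Socs3-deleted livers left out, which leaves a single array in that group, the log2 differences were -1.72 and -1.75. Cyp8b1, which sets the share of cholic acid among bile acids, read 799 and 1024 in Socs3-deleted livers, against 2001 and 1465 in control livers (log2 -0.92 ± 0.26, SE, adjusted p = 0.739). Slc2a2, the glucose transporter of hepatocytes, read 324 and 403 in Socs3-deleted livers, against 896 and 628 in control livers (log2 -1.05 ± 0.26, SE, adjusted p = 0.547). On each of these genes the Socs3-deleted arrays lay below the control and the Ifng-null arrays after PBS.

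Cyp4a12b, a fatty acid hydroxylase, read 1463 and 861 in Socs3-deleted livers, against 2238 and 2357 in control livers. Acaa1b, a thiolase of peroxisomal fatty acid oxidation, read 2051 and 1581 in Socs3-deleted livers, against 3769 and 2747 in control livers (log2 -0.84 ± 0.18, SE, adjusted p = 0.331), and its second probe set was lower by 0.69 on the log2 scale. Egr1, an immediate-early transcription factor, read 178 and 148 in Socs3-deleted livers, against 326 and 728 in control livers. Both Ifng-null arrays, at 203 and 136, were also below the control arrays for Egr1. Hes6, a transcription regulator of the Hes family, read 160 and 179, against 381 and 343. The remaining genes among the 12 largest differences downward were Serpina12, Tsc22d1, Ddc, Dio1 and Nfix, with log2 differences from -0.81 to -1.34. Of these, Dio1, a deiodinase that activates thyroid hormone, read 97.4 and 253.5 in Socs3-deleted livers, against 345 and 261 in control livers, so that replicate 2 lay close to the controls.

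Cytochrome P450 genes as a list leaned downward by a small amount. Of 26 tested, 21 were lower and 5 higher, with a median of -0.18 over the 27 measured (-0.10 in replicate 1 and -0.20 in replicate 2). Cyp7b1, Cyp8b1 and Cyp1a2 were lower at an unadjusted p under 0.05, where 1.85% of all genes were. Cyp3a13 was higher at that threshold, where 2.44% of all genes were. It read 1426 and 1516 in Socs3-deleted livers, against 976 and 712 in control livers. In 10 of the 27 the Socs3-deleted arrays lay below both control arrays, where 17.6% of all genes did, and in 8 they lay below both Ifng-null arrays as well, where 5.42% did. Cyp2e1, the ethanol-inducible enzyme and 1 of the 8, read 7809 and 8670 in Socs3-deleted livers, against 9467 and 9412 in control livers. Cyp7a1, the rate-limiting enzyme of bile acid synthesis, read 120 and 82.1 in Socs3-deleted livers, against 310 and 119 in control livers, with an unadjusted p of 0.148.

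Among 13 tested members of a list of transporters and bile acid genes, 4 were lower at an unadjusted p under 0.05, where 1.85% of all genes were. They were Abcb4, Nr1i3, Abcc3 and the glucose transporter Slc2a2, which is also in the glucose control list. Abca1 was higher at that threshold. The median over 14 measured genes was -0.12, with -0.24 in replicate 1 and -0.0036 in replicate 2. Abcb4, which moves phosphatidylcholine into bile, read 518.4 and 517.6 in Socs3-deleted livers, against 842 and 784 in control livers (log2 -0.65 ± 0.16, SE, adjusted p = 0.547). Nr1i3, the nuclear receptor CAR, read 617 and 524 in Socs3-deleted livers, against 866 and 825 in control livers, and its other probe sets were lower too (log2 -0.39 and -0.55). In fatty acid oxidation and ketogenesis 3 of 17 tested genes were higher, with a median of -0.17 over 19 measured genes (-0.26 in replicate 1 and -0.03 in replicate 2), and 0 had an unadjusted p under 0.05. In glucose control Pklr, the liver pyruvate kinase, read 241 and 279 in Socs3-deleted livers, against 340 and 313 in control livers, and the gluconeogenic gene Pck1 read 1361 and 774, against 1173 and 686.

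Genes of complement and coagulation leaned upward, mostly in replicate 2. Of 33 genes, all tested, 29 were higher, where 47.1% of all genes were, with a median log2 difference of 0.26. At an unadjusted p under 0.05, 7 were higher, where 2.44% of all genes were: Fgb, Pros1, Fgg, Cfi, C4bp, Hc and Mbl2. The list contains the 3 fibrinogen chains of the acute phase list. In 17 both Socs3-deleted arrays lay above both control arrays, where 16.4% of all genes did, and in 9 also above both Ifng-null arrays, where 5.45% did. The list's median in Ifng-null livers against the same control arrays was 0.21. Pros1, the anticoagulant protein S, read 257 and 233 in Socs3-deleted livers, against 189.6 and 118 in control livers. Without replicate 2 of both groups, which leaves 1 array against 1, the median was 0.05 and 20 of 33 genes were higher. Among the negative acute phase proteins, plasma proteins known to fall in inflammation, 7 of 12 were higher with a median of 0.10, and 1, Itih1, had an unadjusted p under 0.05. Rbp4, the plasma carrier of retinol, read 4847 and 4801 in Socs3-deleted livers, against 6123 and 5384 in control livers, and albumin (Alb) read 13413 and 12488, against 13308 and 12587.

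**Figure D4:**
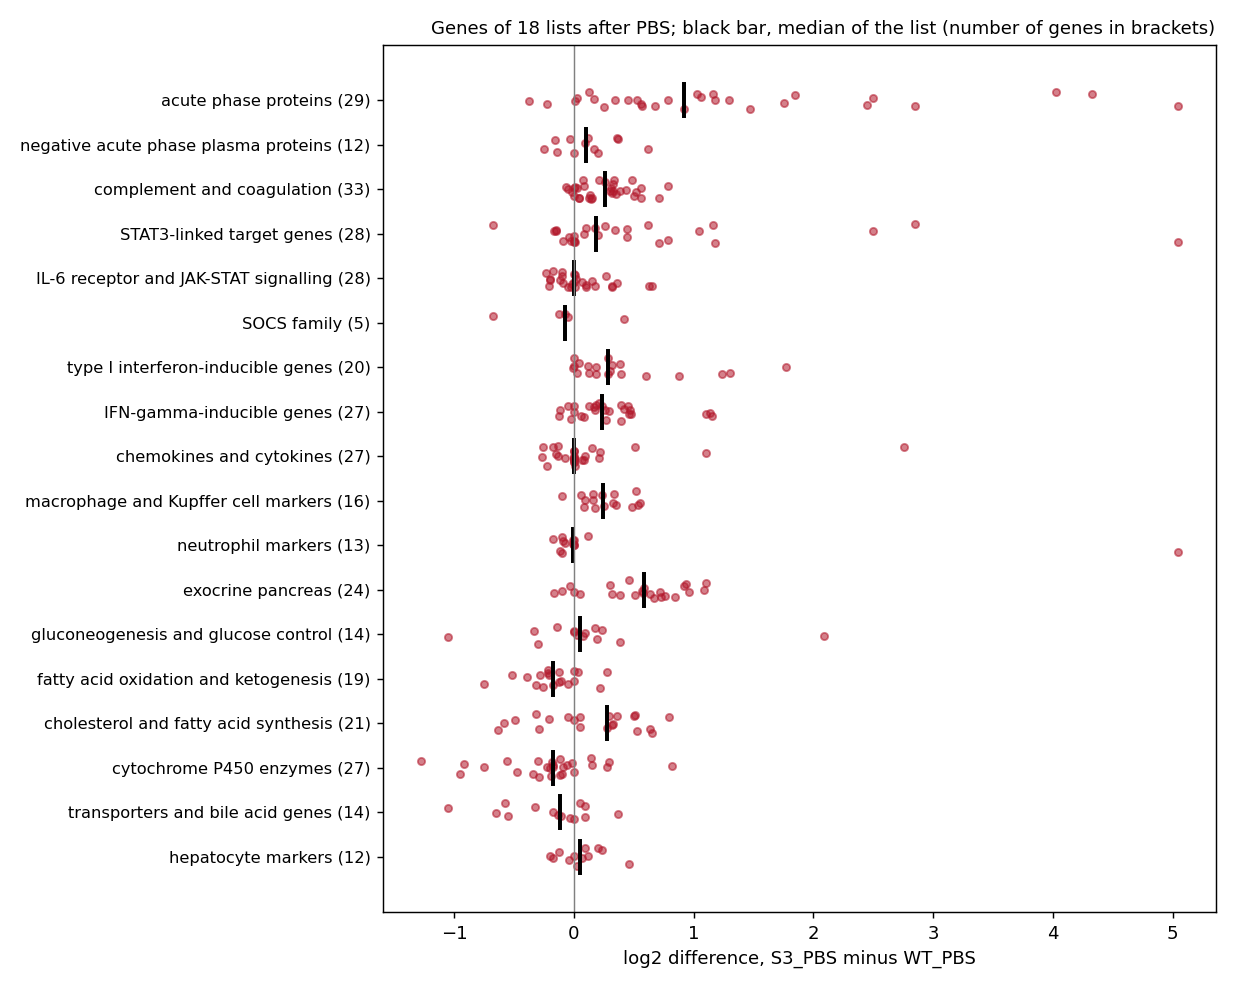
Log2 difference, Socs3-deleted minus control livers after PBS, of the measured genes of 18 lists; each point is a gene, the black bar the median of its list, and the number in brackets the genes measured. The acute phase list has a median of 0.92, complement and coagulation 0.26, cytochrome P450 enzymes -0.18, and the exocrine pancreas list 0.58, with 0.00 in replicate 1 and 1.16 in replicate 2.

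Interferon-inducible genes had small positive medians, and the type I list had one in Ifng-null livers too. Of 19 genes of the type I list that could be tested, 17 were higher, where 47.1% of all genes were. At an unadjusted p under 0.05, 2 were higher, where 2.44% of all genes were. The median over 20 measured was 0.285, with 0.26 in replicate 1 and 0.32 in replicate 2. In 9 of the 19 both Socs3-deleted arrays lay above both control arrays, where 16.4% of all genes did. In 3 they also lay above both Ifng-null arrays, where 5.45% did. In Ifng-null livers, set against the same control arrays, the median of this list was 0.37. Rsad2, the antiviral enzyme viperin, read 308 and 137 in Socs3-deleted livers, against 73.5 and 103 in control livers (log2 1.24 ± 0.34, SE, adjusted p = 0.662). Ifih1, a sensor of viral RNA, read 156 and 174 in Socs3-deleted livers, against 123 and 96.2 in control livers. Ifit1, which binds viral RNA, read 530 and 67.8 in Socs3-deleted livers, against 58.9 and 52.4 in control livers, with replicate 1 alone standing off. Of the 27 genes of the IFN-gamma list, 21 were higher with a median of 0.23 (0.16 in replicate 1 and 0.24 in replicate 2). At an unadjusted p under 0.05, 1 was higher, the immunoproteasome subunit Psmb10, a share near the 2.44% of all genes. In 12 of the 27 both Socs3-deleted arrays lay above both control arrays, where 16.4% of all genes did. In 8 they also lay above both Ifng-null arrays, where 5.45% did. Gbp2, a guanylate-binding protein, read 206 and 53.1 in Socs3-deleted livers, against 43.8 and 50.3 in control livers, where the other 3 arrays lay close together. Irf1 read 201 and 241 in Socs3-deleted livers, against 246 and 203 in control livers. Cxcl10 was below the floor on all 4 arrays. Class I antigen presentation genes had a median of 0.11 over 15 (-0.05 in replicate 1 and 0.13 in replicate 2) and class II genes a median of 0.00 over 11.

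Markers of other cell types were read beside these differences. Of 16 macrophage and Kupffer cell markers, all tested, 15 were higher, where 47.1% of all genes were. Their median was 0.24 (0.11 in replicate 1 and 0.29 in replicate 2). At an unadjusted p under 0.05, 1 was higher (Mpeg1), where 2.44% of all genes were. In 9 of the 16 both Socs3-deleted arrays lay above both control arrays, where 16.4% of all genes did. In 4 they also lay above both Ifng-null arrays, where 5.45% did. The summed intensity of the 16 markers was 4250.0 and 4998 in Socs3-deleted livers, against 3912 and 3472 in control livers. Mpeg1, a pore-forming protein of macrophages, read 331 and 356 in Socs3-deleted livers, against 257 and 213 in control livers. The macrophage gene Adgre1 read 114 and 120, against 112 and 108. The part of these cells in the acute phase and complement differences was not tested. Exocrine pancreas genes had 19 of 22 tested members higher, 0 of them with an unadjusted p under 0.05. The trypsinogen gene Prss2 read 27.0 and 1863 in Socs3-deleted livers, against 24.5 and 651 in control livers, and Cela1, an elastase, 454 and 5931, against 646 and 2695. With the mean exocrine signal as a covariate, 19 acute phase genes were higher at an unadjusted p under 0.05, where 2.71% of all genes were. At that threshold 1 was lower, where 1.51% of all genes were. The median over the 29 genes of the list was 0.89 in that fit. The exocrine signal stands out only on replicate 2 of the Socs3-deleted and of the control arrays after PBS. The covariate therefore cannot separate that signal from other features of those arrays, and its part in the acute phase differences was not tested. Over 15 further lists, from heat shock genes to lymphocyte, endothelial and stellate cell markers, medians lay between -0.10 and 0.06, and 7 members were higher and 3 lower at an unadjusted p under 0.05 among 199 tests, near the shares of 2.44% and 1.85% over all genes. Krt18, a keratin of epithelia, was 1 of the 7, with 573 and 682 in Socs3-deleted livers, against 414 and 370 in control livers.

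The genotype difference after PBS was then set beside that after IL-6, which comes from other arrays. After IL-6, 83 probe sets were higher (0.861%) and 9 lower (0.0934%) at an adjusted p under 0.05, and 876 (9.09%) had an unadjusted p under 0.05. Of the 83, 70 were also higher after PBS by their mean, where 45.1% of all probe sets were, and 51 had Socs3-deleted arrays above both control arrays, where 15.6% did. Their median log2 difference was 0.27 after PBS, against 1.32 after IL-6. There were 22 probe sets called after IL-6 that also had an unadjusted p under 0.05 in the same direction after PBS, which is 23.9% of those called after IL-6 and 5.47% of the 402 after PBS. Both tests use the same estimate of spread. Rpap3 and Clca3a1 were singled out after their values were seen, because they differed by like amounts under both injections. Rpap3 read 75.6 and 74.2 in Socs3-deleted livers, against 47.8 and 50.9 in control livers after IL-6 (log2 0.60, adjusted p = 0.0439). Clca3a1, a member of a family named for chloride channels, read 79.8 and 75.8 in Socs3-deleted livers, against 44.3 and 44.4 in control livers after PBS (log2 0.81, adjusted p = 0.19), and 82.5 and 78.1, against 45.4 and 54.5, after IL-6 (adjusted p = 0.0439).

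Across all 6976 genes the 2 genotype differences correlated with r = 0.388, and 58.2% had the same sign; genes are not independent replicates. Of the 97 genes that were at least 1.5-fold higher after PBS with groups that did not overlap (1.39% of all genes), 82 were also higher in Socs3-deleted livers after IL-6. Of the 31 that were lower in that way (0.444%), 27 were also lower after IL-6. Of all 6976 genes, 3102 were higher in Socs3-deleted livers after IL-6. The 12 largest differences upward were all higher after IL-6 as well. Of the 12 largest downward, 8 were also lower after IL-6. The others were Cyp7b1, Tsc22d1, Nfix and Egr1, with log2 differences of 0.03, 0.06, 0.06 and 0.83 after IL-6. The acute phase genes had a median genotype difference of 0.92 after PBS and 0.28 after IL-6, and type I interferon-inducible genes one of 0.285 after PBS and 1.51 after IL-6; these medians were not tested against each other. The difference between these 2 genotype effects was tested for each probe set, and 4 of 9641 (0.0415%) passed, all smaller after PBS: Cmpk2, Gbp3, Ifit2 and Mx1. With only the arrays compared in the fit 1 passed, Mx1, and without both arrays with exocrine signal 0 did. At an unadjusted p under 0.05 there were 380 (3.94%). For Lcn2 the effect was larger after PBS by 3.41 on the log2 scale, but the adjusted p of that difference was 0.74.

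**Figure D5:**
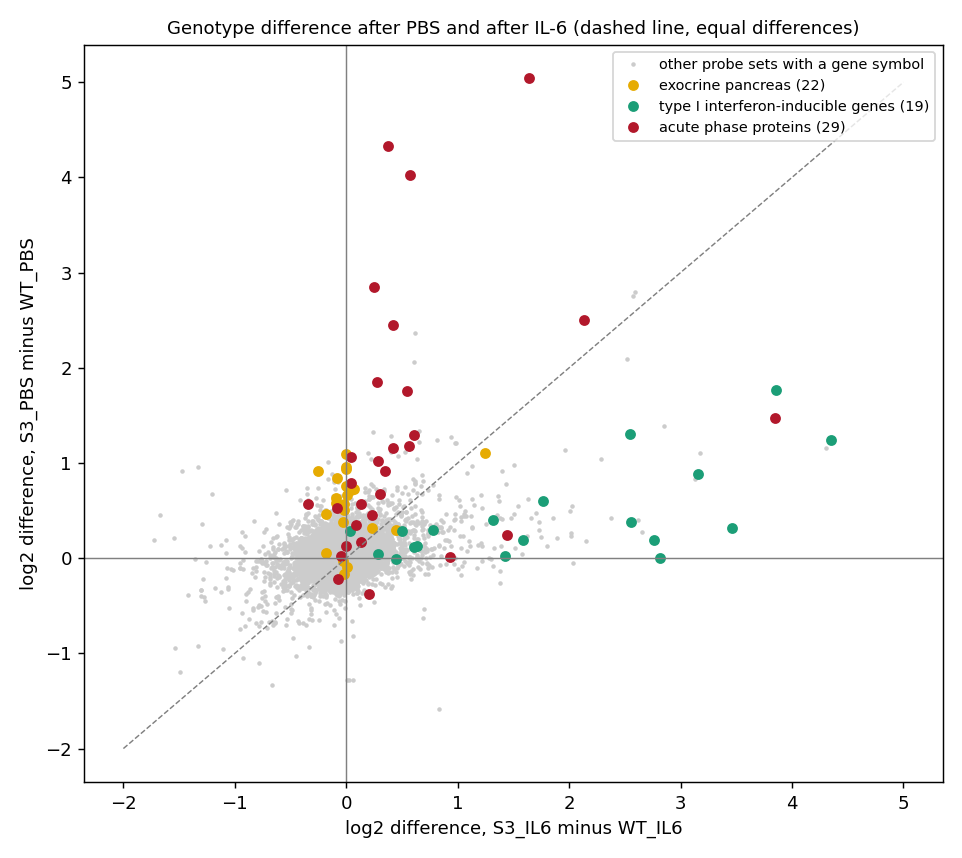
Log2 difference between Socs3-deleted and control livers after PBS (vertical axis) and after IL-6 (horizontal axis) for tested probe sets with a gene symbol; acute phase, type I interferon-inducible and exocrine pancreas genes are coloured, with the number tested in brackets. Acute phase genes lie high on the vertical axis (median 0.92) and near 0.28 on the horizontal axis, and type I interferon-inducible genes run along the horizontal axis (median 1.51).

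Livers of Ifng-null mice after PBS served as a second genotype without Socs3 deletion, compared with the same control arrays. In that comparison 0 of 9641 probe sets were called (0.0%), and 297 (3.08%) had an unadjusted p under 0.05. The acute phase list had a median log2 difference of 0.06 in Ifng-null livers, and 0.92 in Socs3-deleted livers. Lcn2 read 120 and 31.8 on the Ifng-null arrays, Itih3 3136 and 2676, Fgb 2642 and 2359.7, and Cyp7b1 731 and 708 on the first probe set named above. Lcn2 and Mt1 were higher on Ifng-null replicate 1 than on either control array, and Apcs, at 542 and 949, was higher on both.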

How the data were processed

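Total RNA of mouse livers was measured on Affymetrix MG-U74Av2 arrays. The authors deposited 1 linear intensity per probe set and array; the software, background correction and scaling behind it are not given in the sources used here. Arrays have no read depth, and their number limits the precision. A floor of 33.01, the 25th percentile of all intensities, replaced lower values before log2 was taken. Of 12488 probe sets, 66 controls were left out, and the 9641 above the floor on at least 2 arrays were tested with limma 3.58.1 (R 4.3.3; lmFit, contrasts.fit and eBayes on 12 arrays in 6 group means). Adjusted p-values are Benjamini-Hochberg over all probe sets tested, with a threshold of 0.05. The fit was tested on simulated data.

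Gene names came from the platform annotation: 10833 probe sets had 1 symbol, 396 had several and 1193 had none; those with several name no gene here. Lists used 1 probe set per gene, that with the highest mean over the 12 arrays, which gave 6976 genes tested. Groups followed the labels. Named genes were Socs3 and the 12 largest differences in each direction. These differences were taken among probe sets with an unadjusted p under 0.05 and groups that did not overlap. Also named were up to 2 members per list with the smallest p and genes covered by a count of 5 or fewer. Genes for which the genotype effect after PBS differed from that after IL-6 were named too. Other genes were chosen after their values were seen. The members and lists were chosen with earlier results of these data known. Alternatives changed the normalization, floor, filter, variance model, array weights, arrays in the fit and replicate block, and left out single arrays or those with exocrine signal.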

Additional observations from a re-analysis of the deposited data

Results flagged for a closer look

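The genotype difference was smaller after PBS than after IL-6 for 4 interferon-inducible genes, by a test of the difference itself (limma, adjusted over 9641 probe sets, 2 arrays per group). With only the arrays compared in the fit 1 of them passed, Mx1, and without both arrays with exocrine signal 0 passed. Cmpk2, a nucleotide kinase, differed between Socs3-deleted and control livers by 0.19 on the log2 scale after PBS and by 2.76 after IL-6, a difference of -2.57 (adjusted p = 0.00585). Gbp3, a guanylate-binding protein, differed by 0.40 after PBS and 2.62 after IL-6, a difference of -2.22 (adjusted p = 0.0292). Ifit2, an antiviral protein, differed by 0.32 after PBS and 3.46 after IL-6, a difference of -3.14 (adjusted p = 0.00347). It was below the floor on all 4 control arrays and on Socs3-deleted replicate 2 after PBS, so the floor sets the size of these values, and a floor at the 50th percentile gave -2.12. Mx1, an antiviral GTPase, was below the floor on all 4 PBS arrays and on both control arrays after IL-6. Its difference of 2.82 after IL-6 is a lower bound set by the floor, and the floor also sets the size of the difference of -2.82 (adjusted p = 0.00213); a floor at the 10th percentile gave -3.62 and one at the 50th gave -1.47. Both Socs3-deleted arrays after IL-6 lay above both control arrays on each of the 4 genes.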

How the results depend on the processing

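The count of 0 probe sets called after PBS stayed at 0 under every alternative except the omission of either Socs3-deleted array; over the omission of single arrays of both groups it ranged from 0 to 8. Without Socs3-deleted replicate 1, 8 were called: Reg3b, Rnase1, Gas6, Tff2, Apcs, Rpap3 and an unnamed probe set higher, and another unnamed one lower. Without Socs3-deleted replicate 2, 3 were called: both Cyp7b1 probe sets lower and Tff3 higher. Each of these omissions leaves a single Socs3-deleted array after PBS, so that group then has no spread of its own. The replicate block gave 0 calls after PBS, 104 after IL-6 and 6 for the difference of the genotype effects. The replicate numbers were not taken to pair the arrays. Across probe sets, replicate 2 minus replicate 1 correlated at 0.31 between Socs3-deleted and control livers after PBS. The 92 calls after IL-6 became 223 with array weights, 0 with only the arrays compared, 22 with no filter, 35 without both arrays with exocrine signal and 13 to 95 when single arrays were left out. The 4 calls for the difference became 1 with only the arrays compared, 8 with a floor at the 50th percentile, 0 without both arrays with exocrine signal and 1 to 15 when single arrays were left out. Socs3 was lower under every alternative, by -0.71 to -0.52 on the brighter probe set and -0.66 to -0.04 on the dimmer one, the last with the floor at the 50th percentile. Over all 70 splits, ignoring the injection, the Socs3 differences of -0.68 and -0.65 had an exact permutation p = 0.0286. Without both exocrine arrays the log2 difference turned to -0.54 for Socs2, -0.085 for Psmb8 and 0.037 for Selp. It also changed sign when single arrays were left out, with ranges of -0.19 to 1.04 for Socs2, -0.016 to 0.381 for Ins2 and -0.021 to 0.399 for Cmpk2 over the Socs3-deleted arrays, and of -0.635 to 0.011 for Tef and -0.58 to 0.038 for Bhmt over the control arrays. The causes were not tested. With 2 arrays per group, differences of the size seen in most genes named here could not be separated from the spread between arrays.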

Other observations

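Genes of cholesterol synthesis were high on replicate 2 of the Socs3-deleted livers. Of the list's 21 genes, which include fatty acid synthesis, 12 had their highest value among the 4 PBS arrays of the comparison there. The share over all genes was not counted, so the 12 are not read as particular to this list. Hmgcs1, an early enzyme of the pathway, read 332 and 1233 in Socs3-deleted livers, against 463 and 294 in control livers. Sqle, which makes squalene epoxide, read 506 and 1098 in Socs3-deleted livers, against 452 and 507 in control livers. Cyp51, a sterol demethylase, read 111 and 286, against 151 and 134. The list's median log2 difference was 0.27, with -0.16 in replicate 1 and 0.68 in replicate 2, and 0 members were higher at an unadjusted p under 0.05. Scd1, a fatty acid desaturase, ran the other way, with 7934 and 2542 in Socs3-deleted livers, against 7546 and 3983 in control livers. The same Socs3-deleted replicate 2 carried the highest exocrine pancreas signal, and the part of that signal in these values was not tested.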
